A study of Mus musculus with 2 samples.

Results

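The 10 miRNA genes described here lie in the proximal portion of the imprinted Dlk1-Dio3 cluster on mouse chromosome 12, from the region between the long non-coding RNA genes Meg3 and Rian (also called Meg8) into Rian itself. They are Mir493, Mir337, Mir540, Mir665, Mir431, Mir433, Mir127, Mir434, Mir136 and Mir370. They were chosen by name and position out of 2202 annotated miRNA genes, with earlier results of these data known. Each was found in the counts. Small RNA libraries (microRNA-seq) had been made from the gastrocnemius, a calf muscle, of 2 male B6CASTF1/J mice aged 10 days, the F1 hybrid of C57BL/6J and CAST/EiJ. The mice carried no named allele and received no named treatment. They form 1 group, so no conditions could be compared. The labels number them as different animals of 1 donor entry and give no pooling of animals. The direction of the cross is given only through the strain name, and the counts do not separate the parental alleles.

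Imprinted genes are transcribed from the chromosome of only 1 parent. In mouse, Meg3, Rian and the miRNAs of this cluster are transcribed from the maternal chromosome, probably as a long shared transcript that is cut into hairpins, while the retrotransposon-derived protein gene Rtl1 is transcribed in the opposite direction from the paternal chromosome. Several miRNA hairpins sit on the strand opposite to Rtl1, and in mouse they are known to direct cleavage of its mRNA. The region is known in muscle from the callipyge sheep, whose muscle overgrowth goes with raised DLK1 and RTL1. In bulk tissue, fewer cells of a type and less RNA per cell cannot be told apart.

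Replicate 1 held 3999172 reads assigned to miRNA genes and replicate 2 held 5062714. Levels are counts per 1000000 assigned reads (CPM), and they were not divided by gene length because a read spans 1 mature miRNA. The skeletal muscle markers summed to 101176 CPM in replicate 1 and 88175 CPM in replicate 2, with 7 of 9 genes detected, that is, with at least 10 counts in both libraries. Nearly all of this was Mir206. Only reads with a single genomic match are counted, so the Mir1a and Mir133a genes, which have near-identical copies, can be undercounted. The other 8 genes summed to 577 and 729 CPM in replicates 1 and 2, higher in the second animal. Of these 8, Mir499 differed most (192 and 302 CPM), and Mir1a-1, Mir1a-2, Mir208b and Mir486 were also higher in that animal. Mir133b (43.5 and 34.2 CPM), Mir133a-1 and Mir133a-2 were lower in it. Markers of other cells did not all go the same way between the libraries. The erythroid pair Mir451a and Mir144 summed to 1680 and 4088 CPM in replicates 1 and 2, the hepatocyte miRNA Mir122 stood at 103 and 272 CPM, and the endothelial Mir126a at 55784 and 67925 CPM. Of 10 neural markers, 4 were detected, with sums of 1075 and 1062 CPM, and Mir124a-2, Mir124a-3 and Mir9-2 were at 0 in both libraries. The smooth muscle pair Mir143 and Mir145a summed to 24571 and 29713 CPM in replicates 1 and 2. The 5 leukocyte markers summed to 1275 and 1281 CPM, and the 4 brown adipocyte markers to 686 and 617 CPM. The part of these cells in the results below was not tested.

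Of the 10 genes, 5 lie opposite the coding sequence of Rtl1, and their mature miRNAs are shown because each is exactly complementary to the Rtl1 message. A hairpin yields a mature miRNA from its 5p arm and another from its 3p arm, and the counts, which are per hairpin, do not separate these arms. The sequences run 5′ to 3′, come from RefSeq (GRCm38.p6), and have the seed, bases 2 to 8, in capitals.
miR-431-5p: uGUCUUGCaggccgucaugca
miR-431-3p: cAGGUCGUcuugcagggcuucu
miR-433-5p: uACGGUGAgccugucauuauuc
miR-433-3p: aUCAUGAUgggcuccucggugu
miR-127-5p: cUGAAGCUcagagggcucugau
miR-127-3p: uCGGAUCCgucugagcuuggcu
miR-434-5p: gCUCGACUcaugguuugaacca
miR-434-3p: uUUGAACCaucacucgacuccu
miR-136-5p: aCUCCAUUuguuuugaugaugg
miR-136-3p: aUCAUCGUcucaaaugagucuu

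All 10 mature sequences of these 5 genes had their exact reverse complement in the single annotated Rtl1 transcript, over their whole length. Their position opposite its coding sequence fixes this in advance. For Mir431, Mir433, Mir127 and Mir434 no other transcript of the GENCODE M21 annotation held the reverse complement. For Mir136 the antisense gene Mir3071 held it too. The stretches of the Rtl1 message opposite the most and the least abundant of the 5 genes are given as DNA on the minus strand of mm10, with the complement of the seed in capitals.
Rtl1 opposite miR-127-3p, chr12:109592888-109592909: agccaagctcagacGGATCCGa
Rtl1 opposite miR-127-5p, chr12:109592854-109592875: atcagagccctctgAGCTTCAg
Rtl1 opposite miR-136-5p, chr12:109595331-109595352: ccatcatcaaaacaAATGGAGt
Rtl1 opposite miR-136-3p, chr12:109595366-109595387: aagactcatttgagACGATGAt
The Rtl1 coding sequence occupies 109590172 to 109595403 and is 1744 codons long without the stop codon. The Mir136 sites fall in codons 6 to 13 and 18 to 25, close to the start, and the Mir434 sites in codons 273 to 280 and 285 to 292. The Mir127 sites fall in codons 832 to 839 and 843 to 850, the Mir433 sites in codons 1201 to 1208 and 1218 to 1225, and the Mir431 sites in codons 1627 to 1634 and 1642 to 1649. The 5 genes thus run along the coding sequence from its end to its beginning, read along the plus strand.

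The other 5 genes have no Rtl1 sequence opposite them and had no exact complement in it. Mir493, Mir337, Mir540 and Mir665 lie between Meg3 and the end of Rtl1, and Mir370 lies within Rian. Their mature sequences are shown in the same way, because shared seeds define which miRNAs can pair with the same target sites.
miR-493-5p: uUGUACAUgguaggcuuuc
miR-493-3p: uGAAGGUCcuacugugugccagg
miR-337-5p: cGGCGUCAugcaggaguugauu
miR-337-3p: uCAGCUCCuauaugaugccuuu
miR-540-5p: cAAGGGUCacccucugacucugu
miR-540-3p: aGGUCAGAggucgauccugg
miR-665-5p: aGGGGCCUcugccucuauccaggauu
miR-665-3p: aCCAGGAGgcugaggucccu
miR-370-5p: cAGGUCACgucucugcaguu
miR-370-3p: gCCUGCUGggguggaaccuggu

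The 20 mature sequences had 20 different seeds, so no pair of the 10 genes shared one. Of the 20 seeds, 2 occurred in another mouse mature miRNA of the RefSeq table. The seed of miR-540-3p was also that of miR-6915-5p, and the seed of miR-370-5p was also that of miR-1193-3p, whose gene Mir1193 lies in the distal portion of the same cluster. This is 10.0% of the members' mature sequences, against 27.9% of the 1679 mature names in that table. The hairpins were 62 bases (Mir136) to 124 bases (Mir433) long, and their G and C content ran from 40.3% in Mir136 to 61.2% in Mir540. Reads that match several genomic places are counted for no gene. The longest stretch that any of the 10 hairpins shared with a miRNA gene elsewhere, on either strand, was 11 to 14 bases, shorter than every mature sequence above. Other genomic repeats were not searched.

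Some hairpins repeat a stretch within themselves. The hairpin of Mir434 holds 13 bases at 2 places, at the end of its 5p arm and across the start of its 3p arm, and Mir431 holds 10 bases at 2 places, within miR-431-5p and miR-431-3p. Mir540 also holds 10 bases at 2 places, across the start of its 5p arm and between its arms. The hairpins of the most abundant gene and of Mir434 are shown to make this visible, with the mature arms of Mir127 and the repeat of Mir434 in capitals.
Mir127 hairpin, chr12:109592846-109592915: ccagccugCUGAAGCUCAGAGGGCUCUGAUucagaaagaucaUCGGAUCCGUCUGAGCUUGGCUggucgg
Mir434 hairpin, chr12:109594506-109594599: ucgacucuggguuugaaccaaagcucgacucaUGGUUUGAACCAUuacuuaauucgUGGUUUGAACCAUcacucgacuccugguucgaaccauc

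By reads with a single genomic match, the genes opposite Rtl1 ran from the miRNA gene with the highest mean level, Mir127, down to the ninth of the 10, Mir136. Mir127 (109592846 to 109592915, with no host gene on the plus strand), studied in mouse for its part in satellite cell differentiation, had 392951 counts in replicate 1 and 484054 in replicate 2. Its level was 98258 CPM in replicate 1 and 95612 CPM in replicate 2, a mean of 96935 ± 1871 CPM (SD, n = 2, as for all means here). It ranked 2 of all miRNA genes in replicate 1 and 1 in replicate 2, next to the muscle-specific Mir206 (94022 ± 9301 CPM). Reads with several genomic matches (47.0% of the total in replicate 1, and in replicate 2 48.0%) enter no rank, so genes with near-identical copies can be undercounted. Of the muscle miRNAs with such copies, Mir1a-1 and Mir1a-2 averaged 2.61 and 102 CPM, and Mir133a-1 and Mir133a-2 averaged 5.84 and 1.67 CPM.

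Mir431 (109590447 to 109590537), reported in mouse to act on the satellite cell factor Pax7, had 13337 and 11727 CPM in replicates 1 and 2, a mean of 12532 ± 1138 CPM and rank 17. It was the second of the 10 genes, and Mir127 exceeded it 7.37-fold (exact counting interval 7.30 to 7.43) in replicate 1 and 8.15-fold (8.08 to 8.22) in replicate 2. Mir434 (109594506 to 109594599), reported to protect mouse muscle cells from apoptosis, had 7207 and 6471 CPM, a mean of 6839 ± 520 CPM. Mir433 (109591715 to 109591838) had 4540 and 4829 CPM, a mean of 4684 ± 204 CPM.

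Mir136 (109595327 to 109595388), opposite the start of the coding sequence, had only 928 counts in replicate 1 and 1235 in replicate 2. Its level was 232 and 244 CPM, a mean of 238 ± 8.4 CPM and rank 132. Mir127, which lies 2.41 kb away on the same strand, exceeded it 423-fold (exact counting interval 397 to 452) in replicate 1 and 392-fold (371 to 415) in replicate 2. The 2 genes with the highest and the lowest level of the 5 thus share the strand and the same short stretch of chromosome.

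The 4 genes between Meg3 and Rtl1 lay closer together in level. Mir337 (109585789 to 109585885) led them with 7028 CPM in replicate 1 and 6909 CPM in replicate 2, a mean of 6969 ± 85 CPM. Mir540 (109586080 to 109586146) had 4786 and 4398 CPM, a mean of 4592 ± 274 CPM, and Mir493 (109580233 to 109580315), studied in human colon cancer as a suppressor of liver metastasis, had 2917 and 2811 CPM, a mean of 2864 ± 75 CPM. Mir665 (109586314 to 109586407) was the lowest, with 996 and 815 CPM and a mean of 906 ± 128 CPM. The hairpins of Mir337, Mir540 and Mir665 are neighbours, 194 and 167 bases apart, and their mean levels fell in that order in both libraries. None of these 4 genes has a host gene on its strand in the annotation.

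Mir370 (109618258 to 109618336), within an intron of Rian and 22.9 kb downstream of Mir136, reported in human liver cells to lower the fatty acid oxidation enzyme CPT1A, had 950 and 1132 counts. This was 238 CPM in replicate 1 and 224 CPM in replicate 2, a mean of 231 ± 9.9 CPM and rank 135. Mir136 was the higher of these low genes in replicate 2 and Mir370 in replicate 1, and the gap between their means was smaller than the sum of their SDs.

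**Figure D1:**
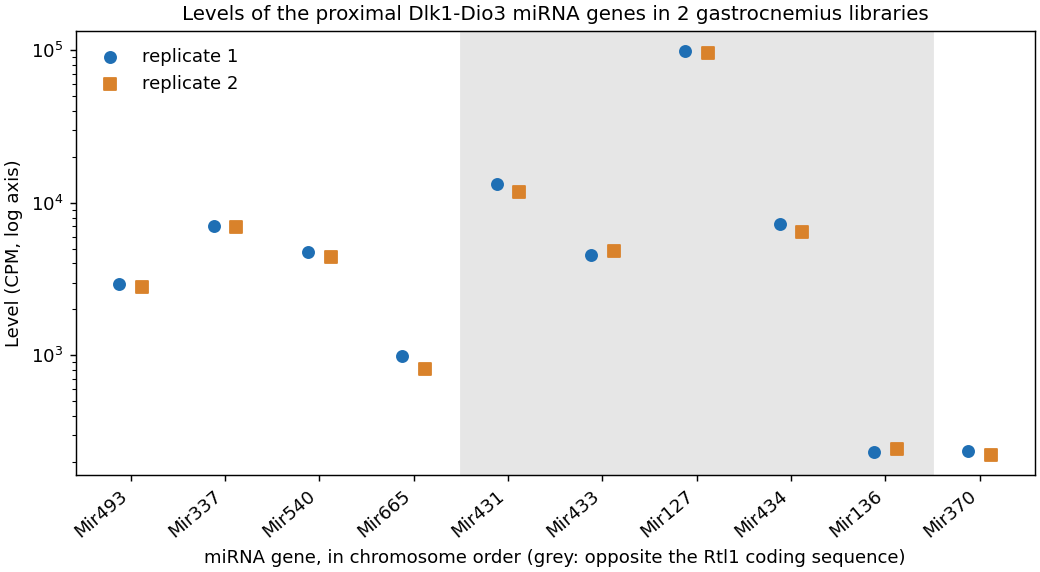
Level of each of the 10 genes in CPM on a log axis, in chromosome order, with a circle for replicate 1 and a square for replicate 2; the grey band holds the 5 genes opposite the Rtl1 coding sequence. Mir127 has a mean of 96935 CPM and Mir136 and Mir370 have means of 238 and 231 CPM, and the symbols of the 2 libraries lie close together for every gene.

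In falling order of mean level, the genes were Mir127, Mir431, Mir337, Mir434, Mir433, Mir540, Mir493, Mir665, Mir136 and Mir370. Of the 9 neighbouring pairs in this order, 6 kept their order in both libraries with means further apart than the sum of their SDs. The other 3 pairs changed order between the libraries and differed by less than that sum. These were Mir337 and Mir434 (a difference of 129 CPM), Mir433 and Mir540 (92.7 CPM), and Mir136 and Mir370 (7.42 CPM). No test between genes was run on the 2 libraries.

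All 10 genes were detected, as were 313 of all 2202 miRNA genes (14.2%). At least 1000 CPM in both libraries was reached by 7 of the 10 and by 69 of all genes. The median of the 10 mean levels was 4638 CPM, against 135 CPM over the 313 detected genes. These values partly follow from the choice of the 10. Of all 19 plus-strand genes from Meg3 to Mir370, 15 were detected and 9 reached 1000 CPM in both libraries. Their median was 906 CPM, with undetected genes included. Among the leading 20 miRNA genes by singly matching reads were 2 of the 10 (Mir127 and Mir431), and among the leading 50 were 7. The genes just above and below Mir493 in level, Mirlet7f-2 (2955 ± 100 CPM) and Mir28a (2863 ± 86 CPM), lie outside the cluster. Mir431 stood between Mir541 (12713 ± 729 CPM) and Mir382 (11516 ± 246 CPM), which are distal genes of the same cluster. Mir136 stood between Mir499 (247 ± 77 CPM), which lies outside the cluster, and the distal gene Mir376b (236 ± 7.8 CPM). No likeness of pattern was computed, since 2 libraries give none.

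**Figure D2:**
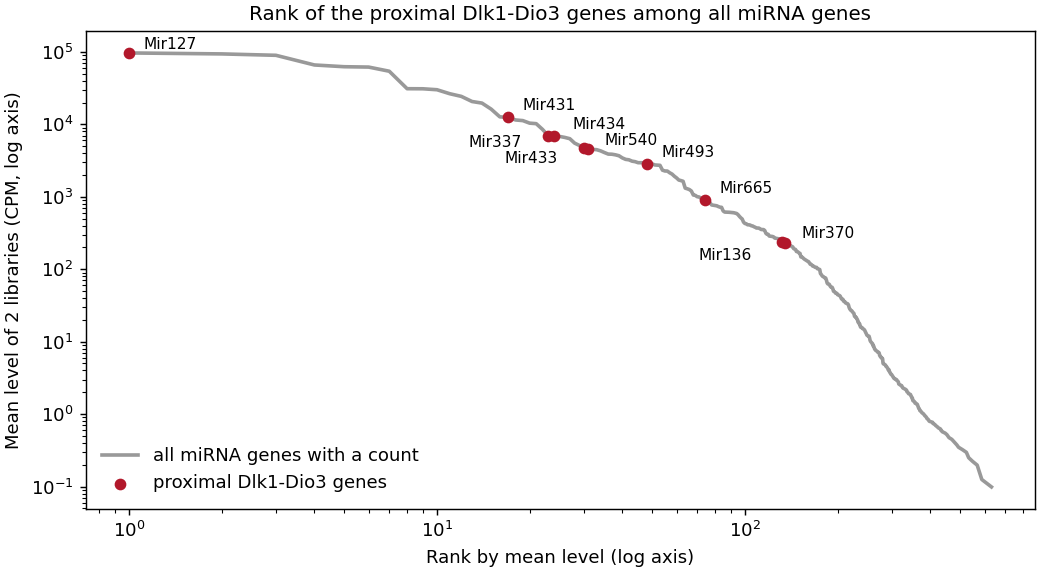
Mean level in CPM against rank for all miRNA genes with a count, both on log axes, with the 10 genes as red points. They run from rank 1 (Mir127) to rank 135 (Mir370), and 7 of them lie within the leading 50.

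Together the 10 genes held 13.95% (13.92 to 13.99, exact 95% interval) of the assigned counts in replicate 1 and 13.40% (13.37 to 13.43) in replicate 2, a mean of 13.7% ± 0.39. Mir127 alone made up 70.4% of the members' counts in replicate 1 and 71.3% in replicate 2. The 5 genes opposite Rtl1 held 88.6% ± 0.095 of the members' counts. With Mir127 left out, the other 4 held 60.9% ± 0.54 of what remained. All reads, including those with no assigned gene, gave the 10 genes 5.77% in replicate 1 and 5.26% in replicate 2.

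The proximal genes were also set against the distal genes, the 38 plus-strand miRNA genes from Mir379 to Mir410. The cluster, from Meg3 to Mir410 on the plus strand, held 29.3% and 29.1% of the assigned counts in replicates 1 and 2. Of that, the 10 proximal genes held 47.5% in replicate 1 and 46.1% in replicate 2, against 50.7% and 52.2% for the distal genes. The distal share was thus larger than that of the 10 genes in both libraries. The difference, the 10 genes minus the distal genes, was -3.17 percentage points in replicate 1 and -6.05 in replicate 2. The other plus-strand genes of the cluster held 1.74% and 1.72% in replicates 1 and 2 and are in neither share. With Mir127 left out of the cluster, the other 9 proximal genes held 20.4% ± 1.0. The median level was 4638 CPM over the 10 proximal genes and 456 CPM over the 38 distal genes, of which 34 were detected. Since the 10 are a selection, all detected, the median was also taken over all 19 plus-strand genes from Meg3 to Mir370, detected or not. It was 906 CPM there, against the 456 CPM of all 38 distal genes. Over the 34 detected distal genes it was 727 CPM, and a matching median over the 15 detected of the 19 was not taken. The leading distal genes were Mir411 (62567 ± 3216 CPM), Mir379 (31022 ± 875 CPM) and Mir541. Mir127 exceeded Mir411, the highest of them, 1.63-fold in replicate 1 and 1.47-fold in replicate 2.

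**Figure D3:**
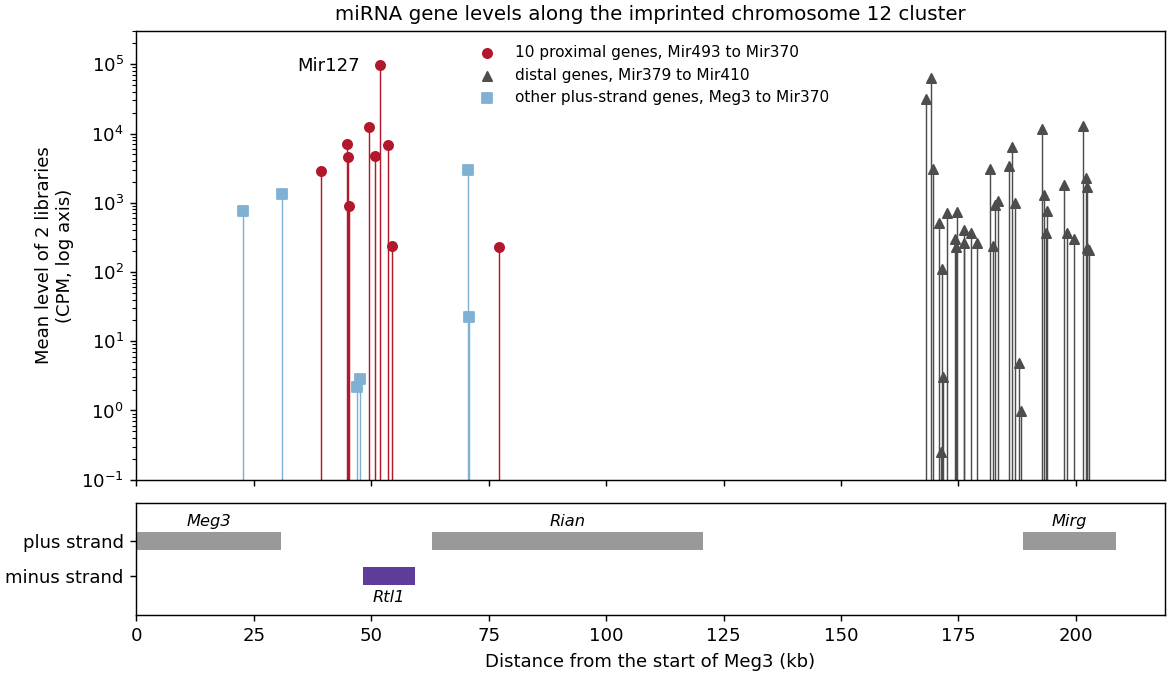
Mean level in CPM (log axis) of the plus-strand miRNA genes with a count, against distance in kb from the start of Meg3; red circles are the 10 proximal genes, triangles the distal genes and squares the other genes between Meg3 and Mir370, and bars below mark Meg3, Rtl1, Rian and Mirg. Mir127 has the highest level and stands above Rtl1, the 10 genes lie 39.2 to 77.3 kb from the start of Meg3, and a stretch without counted miRNA genes separates them from the distal group.

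Between the start of Meg3 and the end of Mir370, 11 further miRNA genes are annotated, and their levels varied as widely. On the plus strand, Mir341 (2960 ± 100 CPM), in an intron of Rian, Mir673 (1318 ± 11 CPM) and Mir770 (758 ± 11 CPM), in an exon of Meg3, were the highest. Mir1188 had 22.3 ± 1.5 CPM. Mir3070a and Mir3070b, which carry the same 5p sequence, had 2.22 ± 1.46 and 2.81 ± 0.62 CPM, and reads of that shared sequence are counted for neither. Mir432, opposite the Rtl1 coding sequence between Mir434 and Mir136, was at 0 in both libraries, where 0 counts leave room for at most 0.75 CPM in replicate 1 and 0.593 CPM in replicate 2. Mir1906-1 and Gm23912 had none either. The remaining 2, Mir3544 and Mir3071, lie on the minus strand.

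Mir337 and Mir136 overlap a miRNA gene on the other strand, so their strands were compared. Mir3544 covers 61 of the 97 bases of the Mir337 hairpin, and Mir3071 covers all 62 bases of the Mir136 hairpin and lies in the Rtl1 exon, in the sense of Rtl1. Mir337 had 28108 counts in replicate 1 and 34977 in replicate 2, against 51 and 84 counts for Mir3544, a ratio of 551 (exact counting interval 419 to 740) in replicate 1 and 416 (336 to 522) in replicate 2. Mir136 had 928 and 1235 counts, against 18 and 11 for Mir3071, a ratio of 51.6 (32.4 to 87.4) in replicate 1 and 112 (62.5 to 225) in replicate 2. The plus strand thus held nearly all reads at both loci. Without regard to strand these reads are ambiguous, and Mir337 then had 1 count and Mir136 had 0 in each library, so the levels of both rest on the stranded counting.

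At the other 8 genes no miRNA gene is annotated on the other strand, and the reads there were few. Mir434 had 9 reads in replicate 1 and 4 in replicate 2 on the strand of Rtl1, above the limit of 3 reads that a count of 0 allows. Mir433 had 0 and 1, and the other 6, Mir127 and Mir431 among them, had 0 in both libraries. Over the 2138 miRNA genes with no partner on the other strand there were 35 such reads in replicate 1 and 39 in replicate 2, and only 2 of these genes, Mir434 and Mirlet7b, passed the limit in both libraries. Whether these reads came from the Rtl1 message was not tested.

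The 10 genes lay close together in the 2 libraries, with log2 ratios of replicate 1 over replicate 2, after TMM scaling of the library totals, from -0.16 (Mir433) to 0.22 (Mir665). The median absolute log2 ratio was 0.07, a 1.05-fold difference, against 0.16 or 1.11-fold over all 332 tested genes and 0.10 over the 134 genes at least as deeply counted as the lowest of the 10. The exact binomial test of the counts, which knows counting error only and compares these libraries rather than conditions, called 7 of the 10 genes different at a Benjamini-Hochberg adjusted threshold of 0.05. It called 39.5% of all tested genes and 61.2% of the 134 genes at least as deeply counted as the lowest of the 10. The share of the 10 lies near the latter, and a background at the depth of each gene was not taken.

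Mir665 had the largest difference, higher in replicate 1 (996 CPM in replicate 1 and 815 CPM in replicate 2, log2 ratio 0.22, interval 0.16 to 0.28, exact binomial adjusted p = 7.56e-11). Mir431 (log2 ratio 0.11, interval 0.10 to 0.13), Mir434 (0.08, interval 0.06 to 0.11) and Mir540 (0.05, interval 0.02 to 0.08) were also higher in replicate 1. These are 4 genes higher in replicate 1, where the background was 12.3% of all tested genes and 23.1% of those at least as deep as the lowest of the 10. Mir433 was higher in replicate 2 (log2 ratio -0.16, interval -0.19 to -0.13, exact binomial adjusted p = 8.10e-29). So was Mir337 (log2 ratio -0.05), but with plain library totals its ratio was 0.02 and its call was lost (exact binomial adjusted p = 0.0714). Mir127 was higher in replicate 2 as well (-0.03), but with plain totals it was called higher in replicate 1 (0.04). These are 3 genes higher in replicate 2, where the background was 27.1% of all tested genes and 38.1% of those at least as deep as the lowest of the 10. Plain totals called 6 of the 10 higher in replicate 1 and 1 in replicate 2, and over all tested genes 79 and 62, against 41 and 90 with TMM. Mir493 (log2 ratio -0.02, but 0.05 and called with plain totals), Mir136 (-0.14, exact binomial adjusted p = 0.0545) and Mir370 (0.02) did not pass.

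The edgeR exact test with a negative binomial spread, estimated from these same libraries, called 0 of the 10 genes, 0 also at an unadjusted p under 0.05, and 1.81% of all tested genes. That spread was taken from the differences between the same 2 libraries, as 1 group, so the test could hardly call ratios of this size. No conclusion is drawn from the 0. The genes called by the binomial test did not all differ in the same direction. Within the stretch opposite Rtl1, Mir431 and Mir434 were called higher in replicate 1 and Mir433, which lies between Mir431 and Mir127, higher in replicate 2. The ratios of Mir431, Mir434 and Mir433 kept their sign and their call under plain totals.

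**Figure D4:**
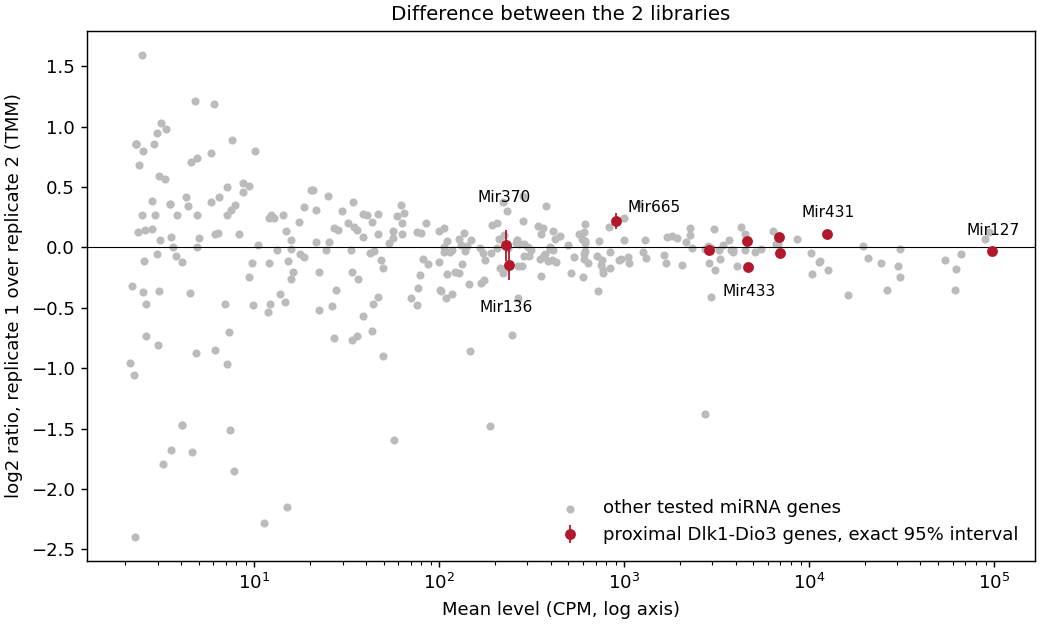
The log2 ratio of replicate 1 over replicate 2 (TMM) against mean level in CPM (log axis) for the 332 tested miRNA genes; red points are the 10 genes with exact 95% intervals, which cover counting error only, and grey points the rest. The red points lie between -0.16 and 0.22, and many grey points, most of them at low levels, lie farther from 0.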

How the data were processed

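The authors deposited raw read counts per miRNA gene, 1 table per library, with 2202 genes and 4 summary rows, and the assembly mm10 and annotation GENCODE M21 are stated in the deposited metadata text. Neither the aligner nor the counting program is named in the sources used here. The count column in the sense of the genes was used. The summary rows, 58.7% of reads in replicate 1 and 60.7% in replicate 2, were left out of the totals, and most were reads with several genomic matches. CPM, TMM factors and all tests were computed here from the deposited counts. The tested genes had a mean of at least 10 counts, p-values were adjusted over all of them, and ratios are replicate 1 over replicate 2. Intervals are exact (Clopper-Pearson) at 95% and, like the limit of 3 counts, cover counting error only, since the tables carry no molecular identifiers.

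The members and lists were chosen with earlier results of these data known. The genes named are the 10 members, every other annotated miRNA gene from Meg3 to Mir370, the 3 leading distal genes, neighbours in level and fixed cell type markers. Sequences came from RefSeq and the M21 transcripts. Software was Python 3.11.15, pandas 2.3.3, numpy 2.4.6, scipy 1.17.1, matplotlib 3.10.9, R 4.3.3, edgeR 4.0.16 and DESeq2 1.42.0.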

Additional observations from a re-analysis of the deposited data

Results flagged for a closer look

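On the strand opposite to the 10 genes, 3 genes exceeded, in both libraries, the 3 reads that 0 counts leave room for. Mir337 had 52 such reads in replicate 1 and 85 in replicate 2, all but 1 of them in each library counted for Mir3544. Mir136 had 18 and 11, the same numbers as its antisense gene Mir3071, and Mir434, where no gene of that kind is annotated, had 9 and 4.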

How the results depend on the processing

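With the unstranded column the 10 genes held 15.81% of the assigned counts, and with all reads as the denominator 5.515%, against 13.68% as reported. Under each of these settings all 10 levels moved by more than their SD, and in the unstranded column 8 genes were detected, with 6 of their 7 neighbouring pairs apart. The share was 13.4% to 13.95%, the share of the cluster 46.11% to 47.54% and the reads opposite the members 79 to 101 with either library left out, and 10 genes stayed detected in both cases. DESeq2 size factors called 7 of the 10 genes and 39.76% of all tested genes. Without a count filter 7 were called too, beside 16.67% of 696 tested genes. Plain totals also called 7, beside 42.47% of all tested genes, gaining Mir493 and losing Mir337. The log2 ratios of Mir493, Mir337 and Mir127 then turned to 0.05336, 0.02478 and 0.03939. Plain totals leave out the TMM factors, 1.025 in replicate 1 and 0.976 in replicate 2, which move the log2 ratio of every gene by the same amount. Why the factors differ was not tested. The negative binomial test called 0, beside 1.807% of all tested genes. The unstranded column could test 8 genes and called 6, beside 38.82% of 304 tested genes. The order of levels in the unstranded column and with all reads as the denominator was an alternative chosen after seeing the data. No paired analysis was possible because there is 1 group. Each of the 10 genes had at least 928 counts in each library, and the reads with several genomic matches, 47.0% and 48.0% of all reads, were assigned to no gene.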
